A study of Mus musculus with 3 samples.

Results

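Fragments of 6 structural RNA genes (Rny1, Rny3, Rmrp, Rpph1, Rn7sk and Terc) were followed in small RNA libraries of fully grown mouse oocytes. A read was taken as a fragment when its first 20 nt, after trimming of the 3′ linker, matched the annotated RNA in sense without a mismatch (GENCODE M21, GRCm38). The 3 libraries held 2732 such reads among 2928379 usable reads, those with an insert of at least 18 nt. These reads matched 6 of 55449 annotated genes, and part of them also matched other genes. Of all annotated genes, 24786 had at least 1 sense read in any library.

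The oocytes came from mice given 5 IU of PMSG, a gonadotropin that drives growth of the ovarian follicle, 48 hours before they were killed. Total RNA was extracted with Trizol and run on polyacrylamide gels, and windows of 19-24 nt, 24-30 nt and 19-30 nt were cut. Each window gave 1 adapter-ligated, PCR-amplified library for Illumina 1G sequencing. The RNA was divided either into the 19-24 and 24-30 nt windows or into the 19-30 nt window alone, and each was processed on its own. Strain, age and the number of animals or oocytes were not given in the sources used here.

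Y RNAs, made from Rny1 and Rny3, are short RNA polymerase III transcripts that fold back so that their ends pair into a stem, which the Ro60 protein binds. In frog oocytes Ro60 is also found with misfolded precursors of 5S ribosomal RNA, and fragments of either end of Y RNAs are known from many cells and body fluids. Rmrp is the RNA of RNase MRP, which cuts precursors of ribosomal RNA, and Rpph1 is the RNA of RNase P, which removes the leader of transfer RNA precursors. Rn7sk encodes 7SK, which holds the elongation factor P-TEFb inactive, and Terc encodes the template RNA of telomerase.

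The reads of 3 of the RNAs came largely from few starts, and those RNAs are shown here with the first 20 bases of the main fragments in capitals, 5′ to 3′, from the GENCODE M21 transcripts. Rny3 is shown whole (chr6:47781624-47781725, plus strand, GRCm38), with the start at position 1 marked. Rny1 is shown whole (chr6:47788069-47788180, minus strand), with the starts at positions 1 and 84 marked. For Rmrp the first 40 bases are shown (chr4:43493024-43493063, minus strand), with the start at position 5 marked.
Rny3: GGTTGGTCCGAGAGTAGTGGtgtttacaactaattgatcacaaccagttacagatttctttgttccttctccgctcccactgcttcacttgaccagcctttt
Rny1: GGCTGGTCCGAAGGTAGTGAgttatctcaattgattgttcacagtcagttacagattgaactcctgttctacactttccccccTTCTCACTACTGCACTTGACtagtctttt
Rmrp: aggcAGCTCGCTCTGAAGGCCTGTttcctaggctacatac

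Rny1 and Rny3 had the same base at 16 of their first 20 positions, and the first 20 bases of each were told apart by the exact match. The lowest-energy fold of Rny3 (RNAfold) paired 21 of the first 26 bases, all with its 3′ part (here from position 69 in Rny3, 75 in Rny1 and 188 in Rmrp to the end). In the fold of Rny1, 20 of the first 26 bases were paired, 17 of them with the 3′ part. In both Y RNAs the 5′ fragments thus lay on 1 strand of a predicted stem whose other strand is in the 3′ part. In the fold of Rmrp, 21 of the 26 bases from position 5 were paired, 10 of them with the 3′ part.

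With 1 library and no replicate for each gel window, the spread between replicates is unknown and no test was made. All intervals are 95% intervals for counting error only. Usable reads numbered 703531, 1472827 and 752021 in the 19-24, 24-30 and 19-30 nt libraries, and 45.6%, 23.8% and 26.9% of them matched an annotated transcript. The reads were 26 nt long in the 19-24 and 24-30 nt libraries and 36 nt long in the 19-30 nt window. A count of 0 reads allowed a level of up to 4.26, 2.04 and 3.99 reads per 1000000 usable reads (RPM), taking 3 reads as the limit. Of 9 oocyte genes used as markers, 8, 8 and 4 had a read in these libraries (39, 45 and 101 reads), with Zp1, Zp2, Zp3, Bmp15 and Dppa3 at 0 in the 19-30 nt window. Of 6 genes of follicle somatic cells, 5, 6 and 1 had a read (34, 93 and 16 reads). Of 6 red blood cell genes, 3, 1 and 2 had a read (3203, 127 and 11 reads), of which at most 1 read in a library was not from the microRNAs Mir451a and Mir144. The part of RNA from such cells in the fragments described here was not tested, and fewer cells of a type and less RNA per cell cannot be told apart in bulk RNA.

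Summed over the 6 genes, 209 reads were fragments in the 19-24 nt window, 2478 in the 24-30 nt window and 45 in the 19-30 nt window. That was a level of 297 RPM (interval 258 to 340) in the 19-24 nt window, 1682 RPM (1617 to 1750) in the 24-30 nt window and 59.8 RPM (43.7 to 80.1) in the 19-30 nt window. The 19-24 nt window thus held 0.177 times the level of the 24-30 nt window (0.153 to 0.203), and the 24-30 nt window held 28.1 times that of the 19-30 nt window (20.95 to 38.7). Neither interval includes 1, but both ratios depend on how reads were counted. The ratio of the 19-24 over the 24-30 nt window was 0.0924 when scaled to reads that match a transcript, 0.380 when reads of microRNA genes were also left out, and 0.406 with each distinct insert counted once. With distinct inserts the ratio of the 24-30 over the 19-30 nt window was 11.1. The level in the 19-30 nt window did not lie between those of the narrower windows. In that library 10.8% of all reads were linker alone, against 7.09% in the 19-24 nt and 0.624% in the 24-30 nt window. Reads of linker alone are not usable reads, so they do not enter the levels in RPM. The cause of the low level was not tested.

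**Figure D1:**
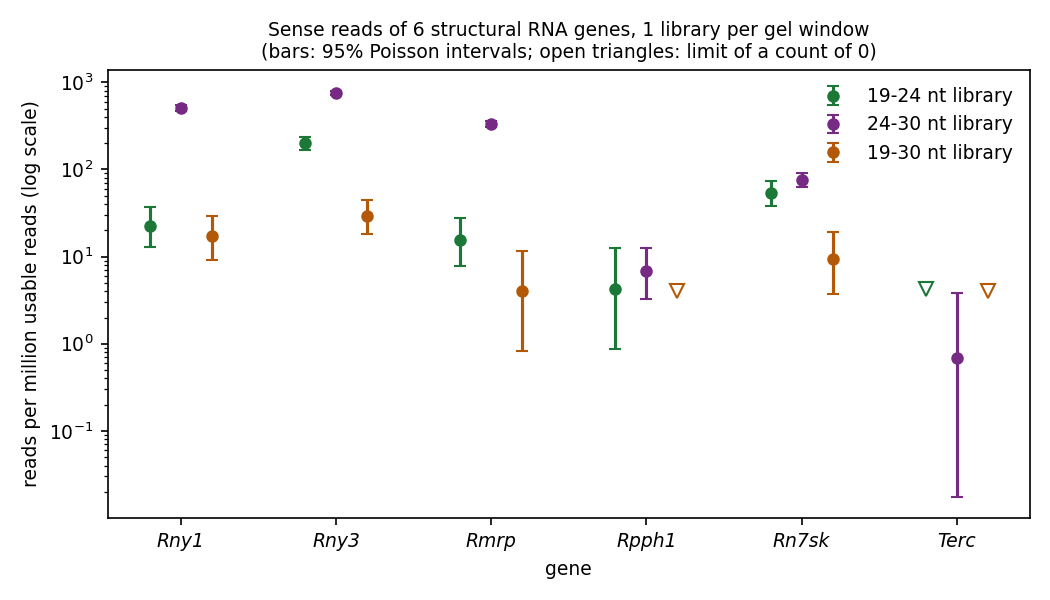
Level of each gene's fragments (RPM, log axis) in the 19-24 nt, 24-30 nt and 19-30 nt libraries, 1 library each. Bars are exact Poisson 95% intervals, and open triangles mark the limit for a count of 0. Rny1, Rny3 and Rmrp stand at 333 to 758 RPM in the 24-30 nt library, above their levels in the other two libraries.

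Over all 12020 genes with at least 10 sense reads in the 19-24 and 24-30 nt libraries together, 15.3% were lower by more than 2-fold in the 19-24 nt window, and the median ratio was 1.58. Of the 5 structural RNA genes that reached 10 reads, 3 were lower by more than 2-fold (Rny1, Rny3 and Rmrp). Rn7sk, at 0.704 times, and Rpph1, at 0.628 times, were not past that fold. Rpph1, with 3 and 10 reads, reached 10 reads only through the 24-30 nt window, so no median of the 5 genes is given. For the 24-30 over the 19-30 nt window, 15.6% of 12598 genes were higher by more than 2-fold, with a median ratio of 0.470. Rny1, Rny3, Rmrp and Rn7sk were past 2-fold there. Rmrp, Rn7sk and Rpph1, with 3, 7 and 0 reads in the 19-30 nt window, reached 10 reads only through the 24-30 nt window, so their passing the filter and the fold are not separate, and no median is given.

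Genes of other structural classes were counted in the same way. The median ratio of the 19-24 over the 24-30 nt window was 0.866 for 649 small nuclear, small nucleolar and small Cajal body RNA genes and 7.28 for 666 microRNA genes. For the 24-30 over the 19-30 nt window, the median was 9.28 over 632 genes of the same nuclear classes, of which 88.8% were higher by more than 2-fold, and 0.363 over 554 microRNA genes. A higher level in the 24-30 than in the 19-30 nt window was thus seen in most of these nuclear RNA genes.

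Scaled to length, Rny3 gave the most fragments in each library. Its level per 100 nt of annotated RNA was 196.5 RPM in the 19-24 nt, 743.5 RPM in the 24-30 nt and 28.7 RPM in the 19-30 nt window. The level of Rny1 on this scale was 20.3, 453 and 15.4 RPM in the same order of libraries. That of Rmrp was 5.57, 118 and 1.42 RPM, and that of Rn7sk 16.3, 23.2 and 2.81 RPM. Within the 24-30 nt window the order of Rny3, Rny1, Rmrp and Rn7sk was outside counting error at each step. In the 19-24 nt window the intervals of Rny1 (11.6 to 32.97) and Rn7sk (11.6 to 22.4) overlapped, and in the 19-30 nt window those of Rny3 (17.97 to 43.4) and Rny1 (8.22 to 26.4) did. The highest measured level of Rpph1 was 2.13 RPM per 100 nt (1.021 to 3.92), in the 24-30 nt window, and that of Terc 0.161 (0.00406 to 0.894), in the same window.

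Rny3 RNA was seen almost wholly as fragments of its 5′ end. It had 141 reads in the 19-24 nt window (200 RPM, 169 to 236), 1117 in the 24-30 nt window (758 RPM, 715 to 804) and 22 in the 19-30 nt window (29.3 RPM, 18.3 to 44.3). Its level was 0.264 times as high in the 19-24 as in the 24-30 nt window (0.2202 to 0.315) and 25.9 times as high in the 24-30 as in the 19-30 nt window (17.0 to 41.5). A read that began at base 1 of the RNA, which is also the RefSeq 5′ end, accounted for 127 reads (90.1%), 1055 reads (94.4%) and 20 reads (90.9%) of the 19-24, 24-30 and 19-30 nt libraries. The intervals of this share overlapped between all libraries, whereas those of the level did not.

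The minor Rny3 reads of the 24-30 nt window lay mainly near the other strand of the stem. Starts at positions 67 to 79 held 46 reads there (4.12%), led by position 74 with 10, position 71 with 9 and position 73 with 8 reads. The same stretch held 3 reads in the 19-24 nt and 1 read in the 19-30 nt window. Starts at positions 2 to 5 held 8 reads of the 24-30 nt window together, so few reads began just after base 1. Reads that began before base 1 of the annotated RNA could not match, so an exact 5′ start was not shown. Only the 7 reads that began at position 69 also matched another gene (Pemt, an enzyme of phosphatidylcholine synthesis).

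Reads that matched Rny1 began near both of its ends, but those of the 3′ end also matched other genes. It had 16 reads in the 19-24 nt window (22.7 RPM, 13.0 to 36.9), 747 in the 24-30 nt window (507 RPM, 472 to 545) and 13 in the 19-30 nt window (17.3 RPM, 9.20 to 29.6). Its level was 0.0448 times as high in the 19-24 as in the 24-30 nt window (0.0255 to 0.0733), and 29.3 times as high in the 24-30 as in the 19-30 nt window (17.1 to 55.4). The interval of the first ratio lay wholly below that of Rny3 (0.2202 to 0.315).

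In the 24-30 nt window, 304 Rny1 reads (40.7%, 37.2 to 44.3) began at base 1, and 303 reads (40.6%, 37.1 to 44.1) began at position 83 or 84. The start at 84 held 157 reads and the start at 83 held 146, so neither was favoured outside counting error. A further group of 114 reads (15.3%) began at positions 6 to 8, with 66 of them at position 8, 24 at position 6 and 24 at position 7. Only 5 reads began between, at positions 2 to 5. In the 19-24 nt window base 1 held 8 reads and positions 83 and 84 held 7, and in the 19-30 nt window base 1 held 2 reads, positions 6 to 8 held 4 and positions 83 and 84 held 7. By region, 42.8% of Rny1 reads of the 24-30 nt window (39.3 to 46.4) started in the 3′ part of the RNA, against 3.49% of Rny3 reads (2.56 to 4.74). Among reads of no other gene, it was 8 of 366 Rny1 reads (2.19%, 1.11 to 4.25) and 32 of 1110 Rny3 reads (2.88%, 2.05 to 4.04). All 303 Rny1 reads at positions 83 and 84 also matched another gene, so this filter removed them whatever their origin. The filtered values therefore do not compare the 3′ shares of Rny1 and Rny3. The larger share of Rny1 rests on reads shared with other genes.

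**Figure D2:**
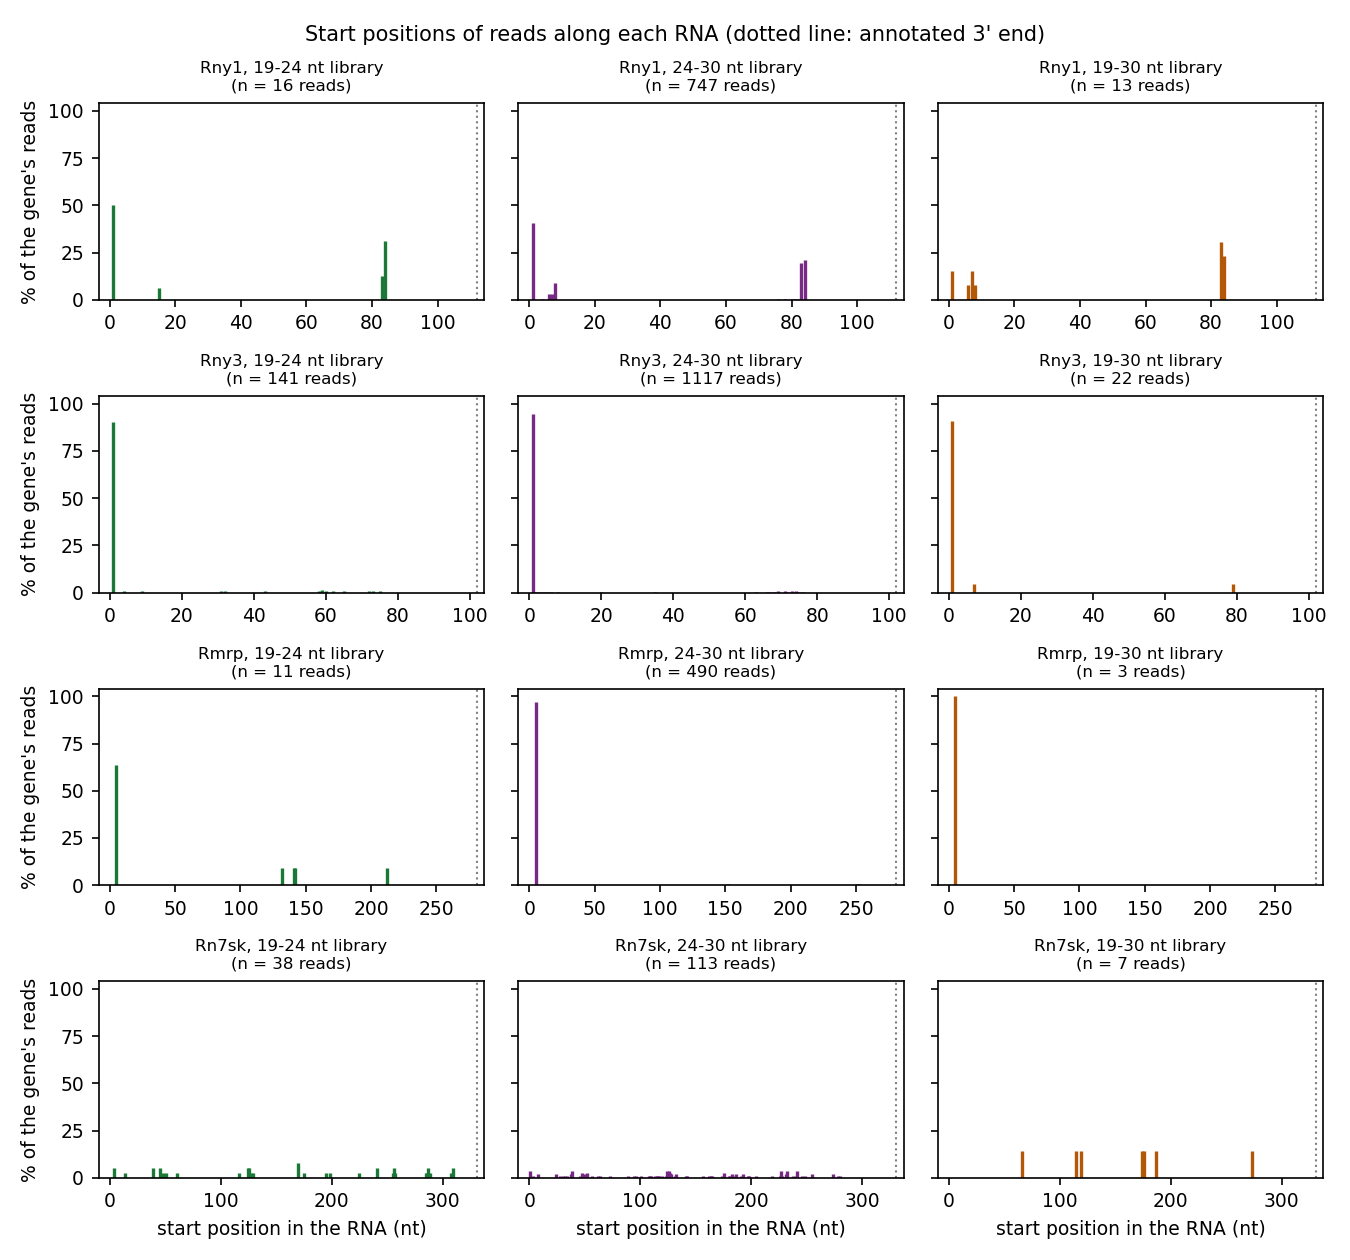
Start of each read along Rny1, Rny3, Rmrp and Rn7sk (position in the RNA in nt, from 1 at the annotated 5′ end) as a percent of the gene's reads in the 19-24 nt, 24-30 nt and 19-30 nt libraries. Rny3 and Rmrp have 1 dominant start (94.4% and 96.7% of the 24-30 nt reads), Rny1 has starts near both ends (those at 83 and 84 shared with other genes), and no Rn7sk start holds more than 4 reads.

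The 3′ fragments of Rny1 could not be assigned to that gene alone. Every read at positions 83 and 84, and every read at position 8 of the 24-30 nt window but none at positions 1, 6 or 7, also matched other annotated genes of the class misc_RNA. Gm24379 shared 325, Gm24372 318, Gm23921 154 and Gm26168 71 of the 776 Rny1 reads. The reads that matched no other gene numbered 8 in the 19-24 nt, 366 in the 24-30 nt and 5 in the 19-30 nt window. Of these, 8, 304 and 2 began at base 1, which was 83.1% in the 24-30 nt window. How many of the fragments from positions 83 and 84 came from Rny1 itself is therefore unknown.

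Rmrp RNA gave fragments of its 5′ end at a single base. It had 11 reads in the 19-24 nt window (15.6 RPM, 7.81 to 28.0), 490 in the 24-30 nt window (333 RPM, 304 to 364) and 3 in the 19-30 nt window (3.99 RPM, 0.823 to 11.7). The 19-24 nt window held 0.0470 times the level of the 24-30 nt window (0.0233 to 0.0848). The ratio of the 24-30 over the 19-30 nt window was 83.4, with an interval of 28.4 to 406 that reflects the 3 reads below it. Of the reads, 7 of 11, 474 of 490 (96.7%, 94.8 to 98.0) and 3 of 3 began at position 5 of the 281 nt GENCODE transcript. That base (chromosome 4, 43493059) is the 5′ end of the RNA in the RefSeq annotation, and no read began at positions 1 to 4. The next starts in the 24-30 nt window were 152, 251 and 252, with 3 reads each. All 490 reads of that library matched no other gene, whereas 3 reads of the other libraries also matched Hydin, a gene of motile cilia.

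Reads that matched Rn7sk were spread along the RNA. There were 38 in the 19-24 nt window (54.0 RPM, 38.2 to 74.1), 113 in the 24-30 nt window (76.7 RPM, 63.2 to 92.2) and 7 in the 19-30 nt window (9.31 RPM, 3.74 to 19.2). The ratio of the 19-24 over the 24-30 nt window was 0.704 (0.474 to 1.03), an interval that includes 1. The ratio of the 24-30 over the 19-30 nt window was 8.24 (3.87 to 20.97), below the interval of Rmrp and overlapping those of Rny1 and Rny3. The 113 reads of the 24-30 nt window began at 72 of 312 possible positions, and the most used start held 4 reads (3.54%). In the 19-24 nt window 27 positions were used and the top start held 3 reads. Starts in the first 5 nt made up 5.26%, 4.42% and 0% of Rn7sk reads in the 19-24, 24-30 and 19-30 nt libraries.

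The gene of origin of most Rn7sk reads is uncertain. Only 10 of 38, 21 of 113 and 1 of 7 reads matched no other gene, all of them in the 3′ part (from position 221), and 50 other misc_RNA genes shared at least 1 of the 158 reads. Gm24447 shared 116 of them and Gm26315 shared 109.

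Rpph1 and Terc were near the limit of detection. Rpph1 had 3 reads in the 19-24 nt window (4.26 RPM, 0.879 to 12.5), 10 in the 24-30 nt window (6.79 RPM, 3.26 to 12.5) and 0 in the 19-30 nt window. None of its 13 reads began in the first 5 nt of the 319 nt transcript (chr14:50807449-50807767, minus strand), and the most used start, position 48, held 2 reads of the 24-30 nt window. The RefSeq 5′ end lies 4 nt upstream of that transcript, and reads that began there were not counted. Of the 13 reads, 11 also matched Ccnb1ip1, a gene of meiotic crossing over. Terc (chr3:96414437-96414859, minus strand) had 0, 1 and 0 reads, and the 1 read of the 24-30 nt window began at position 36 of the 423 nt transcript.

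By region, 69.4% of all fragments of the 6 genes in the 19-24 nt window (62.8 to 75.2), 74.7% in the 24-30 nt window (73.0 to 76.4) and 55.6% in the 19-30 nt window (41.2 to 69.1) began in the first 5 nt of an RNA. A start in the 3′ part was found for 12.9% in the 19-24 nt window, 16.0% in the 24-30 nt window and 9 of the 45 fragments in the 19-30 nt window. These sums were led by Rny3, which gave 67.5%, 45.1% and 48.9% of the fragments. When reads that also matched another gene were left out, 83.9%, 92.8% and 80.0% began in the first 5 nt. That filter removes all Rny1 reads from positions 83 and 84 and most Rn7sk reads, whatever their gene of origin. It keeps all reads from base 1 of Rny1 and Rny3, so it does not treat both ends alike. When each distinct read sequence was counted once, the share was 49.2% in the 19-24 nt and 47.9% in the 24-30 nt window.

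**Figure D3:**
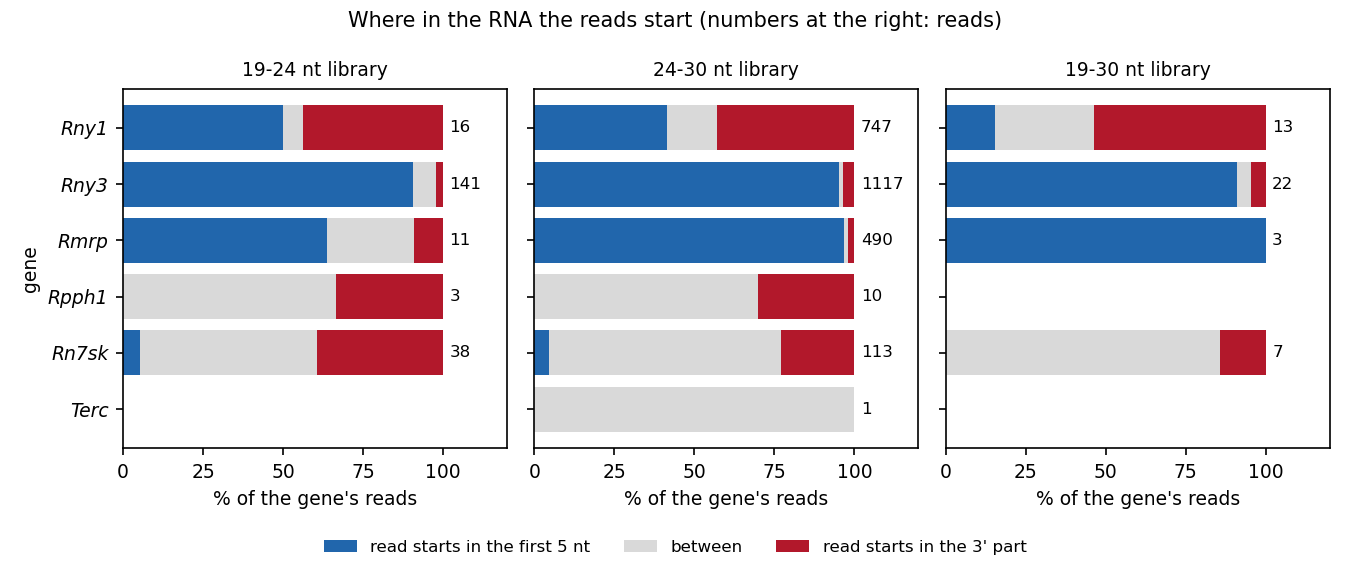
Share of each gene's reads that start in the first 5 nt, between, or in the 3′ part of the RNA, in the 19-24 nt, 24-30 nt and 19-30 nt libraries, with read counts at the right of the bars. In the 24-30 nt library, 95.2% of Rny3 and 96.7% of Rmrp reads start in the first 5 nt, against 41.4% of Rny1 and 4.42% of Rn7sk reads.

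The first base followed from the main start of each RNA. In the 24-30 nt window 95.9% of Rny3 reads began with G (94.6 to 96.9), a base found at 20.5% of the possible starts of that RNA, and 98.4% of Rmrp reads began with A (96.8 to 99.2), found at 19.5% of its possible starts. Rny1 reads began with G in 44.3%, C in 30.3% and U in 25.3%, since the starts at 1, 83 and 84 carry different bases. Rn7sk reads began with G in 38.1% and A in 31.0%, where 28.5% and 20.5% of possible starts have these bases. Over the 6 genes, U began 7.66%, 8.80% and 15.6% of fragments in the 19-24, 24-30 and 19-30 nt libraries, against 19.7% of possible starts. Among all usable reads, U began 47.3%, 48.0% and 45.3%, so U was a less frequent first base in the sum of these fragments. In Rny1 reads alone U began 37.5% (of 16 reads), 25.3% (of 747) and 38.5% (of 13).

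Lengths were read in more than 1 way, as a 26 nt read ends before the linker of a long insert is seen. The linker alone gave lengths of up to 22 nt in the 19-24 and 24-30 nt windows and of up to 30 nt in the 19-30 nt window. Of the fragments, 56.0%, 99.5% and 28.9% in these windows were longer than that or showed no linker. The same was true of 52.8%, 97.7% and 41.7% of all usable reads. The 55 sized Rny3 fragments of the 19-24 nt window had a median of 19 nt, with 20 reads at 18 nt, 17 at 19 nt and 11 at 21 nt. In the 19-30 nt window, 14 Rny3 fragments had a median of 23.5 nt (18 to 26) and 11 Rny1 fragments a median of 27 nt (21 to 29).

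A closer length was had by setting each read against the RNA followed by the linker and taking the length with the fewest mismatches, at most 2. In the 19-24 nt window 109 of 127 Rny3 reads from base 1 could be given a length. These ran from 18 to 25 nt, with 20 reads at 18 nt and 18 at 25 nt, and no length held more than 18.3% of them. In the 24-30 nt window 644 of 1055 such reads were given a length, of which 526 (81.7%) read as RNA to the end of the 26 nt read and 89 ended at 25 nt. In the 19-30 nt window 12 of 20 were given a length, with a median of 25 nt. Within the 19-24 nt window the Rny3 fragment thus had no single 3′ end. The windows themselves select for length, so lengths were not compared between them. In the 24-30 nt window, the 526 reads that were RNA to base 26 had their 3′ end at that base or beyond it. The 3′ end of the 411 reads given no length is unknown.

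For Rmrp fragments from position 5, 426 of 474 reads of the 24-30 nt window were given a length. Of these, 342 (80.3%) read as RNA to the end of the read and 70 ended at 25 nt. The 7 reads of the 19-24 nt window ran from 18 to 25 nt. In the 24-30 nt window the lengths of Rny1 fragments could not be read in this way, with 1 of 304 reads from base 1 and 0 of 303 from positions 83 and 84 given a length, because the last bases of such a 26 nt read are the same in the RNA and in the linker. In the 19-24 nt window 7 of 8 reads from base 1 were given a length (20 to 24 nt), as were 4 of 7 from positions 83 and 84 (22 to 25 nt). In the 36 nt reads of the 19-30 nt window, 6 Rny1 reads from positions 83 and 84 were given a length, with a median of 28 nt. Of these, 3 ran from position 83 to position 110, 2 nt before the annotated 3′ end, and the other ends lay 1 to 4 nt before it. The 4 reads of the 19-24 nt window ended 4 to 7 nt before it.

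**Figure D4:**
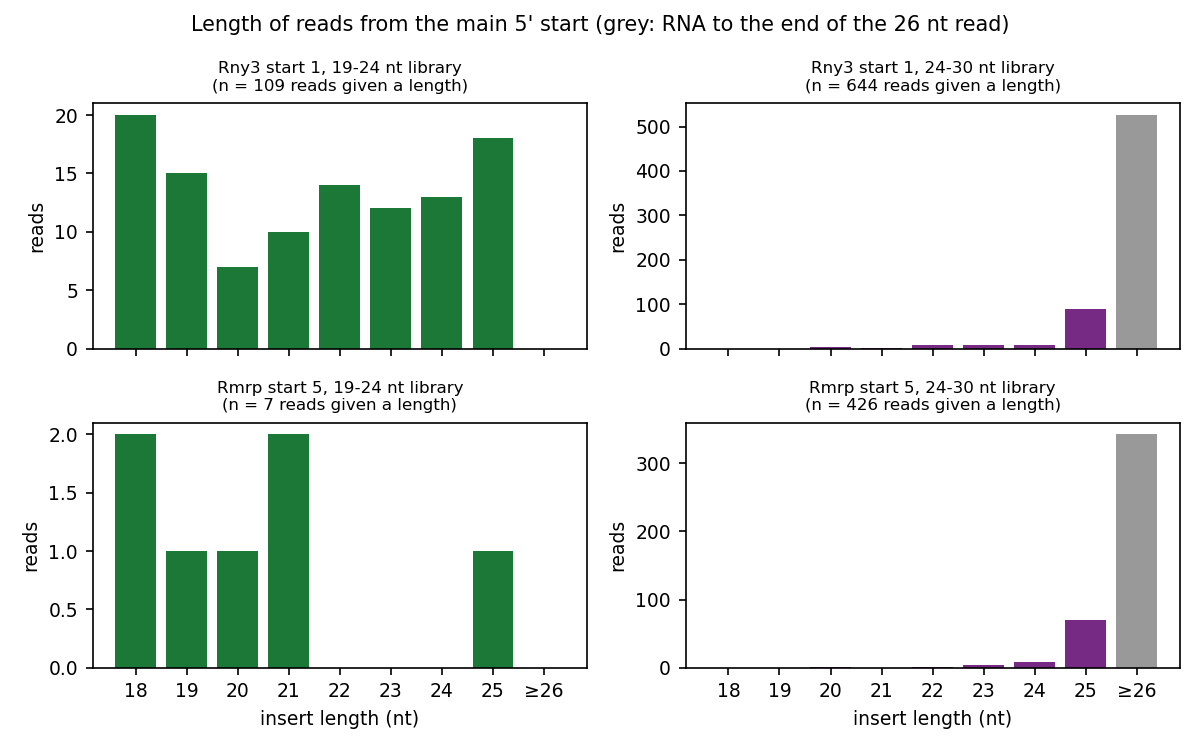
Reads by insert length (nt) for Rny3 reads from position 1 and Rmrp reads from position 5 in the 19-24 nt and 24-30 nt libraries. Lengths were set against the RNA followed by the linker, and grey bars are reads that are RNA to the last base. Rny3 lengths run from 18 to 25 nt in the 19-24 nt library, and 526 of 644 reads of the 24-30 nt window have no end within the read.

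Beyond the matched 20 bases, reads of the 24-30 nt window mostly continued along the RNA. Bases 22 to 26 had at most 1 mismatch in 96.4% of Rny1, 79.7% of Rny3, 90.6% of Rmrp and 86.8% of Rn7sk reads. These bases all agreed in 79.3%, 35.3%, 65.9% and 56.6% of the reads, in the same order of genes. In Rny1 reads from positions 1, 83 and 84 the last bases are the same in the RNA and in the linker. Agreement there does not tell RNA from linker, so the Rny1 values do not show RNA up to base 26. Within Rny3 reads, base 23 agreed in 70.1% and base 26 in 53.9%, and within Rny1 reads base 21 agreed in 49.2%, while base 22 agreed in 98.7% of Rny3 and 92.1% of Rny1 reads. The part of base-calling error and of untemplated ends in these differences was not tested. When 1 mismatch was allowed within the first 20 nt, 251 Rny1, 228 Rny3, 53 Rmrp and 29 Rn7sk reads were added in the 24-30 nt window. No read matched the antisense strand of any of the 6 RNAs in any library, which allows up to 3 reads in each.

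Other annotated structural RNAs differed in their pattern over the libraries. The signal recognition particle RNA genes Rn7s1 and Rn7s2, which share all their reads, had 158, 561 and 48 reads in the 19-24, 24-30 and 19-30 nt libraries, with ratios of 0.590 (19-24 over 24-30) and 5.97 (24-30 over 19-30). Rnu12, the U12 small nuclear RNA of the minor spliceosome, had 1, 290 and 4 reads, with ratios of 0.00722 (0.000182 to 0.0405) and 37.0 (14.3 to 137). The ratios of Rnu12, Rn7s1 and Rn7s2 lay on the same sides of 1 as those of Rny1, Rny3 and Rmrp. Bc1, a small RNA known from neurons and germ cells, had 3232, 4630 and 1502 reads, with ratios of 1.46 and 1.57. Rnu11 had 4, 15 and 1 reads, with a ratio of 7.66 (1.18 to 322) for the 24-30 over the 19-30 nt window. Rnu7 had 4, 4 and 1 reads, Rnu73b had 5, 34 and 15, and Vaultrc5, a vault RNA, had 9, 31 and 15. The ratios of Rnu11 (0.558 and 7.66), Rnu73b (0.308 and 1.16) and Vaultrc5 (0.608 and 1.06) lay on the same sides of 1 as those of Rnu12. For each of these genes at least 1 of the intervals included 1. The first ratio of Rnu7 was 2.09 (0.390 to 11.2), on the other side as for Bc1. The 105 other misc_RNA genes with a read had, leaving out reads shared with the 6 genes, 660, 1585 and 1257 reads, a ratio of 0.872 and then 0.644. Gene by gene, the median ratio of the 24-30 over the 19-30 nt window was 2.21 over 52 misc_RNA genes with shared reads kept. Of these genes, 51.9% were higher by more than 2-fold. With shared reads kept, the summed reads gave a ratio of 0.827, so the sum and the median point in opposite directions.

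Among 6909 genes with at least 100 sense reads, the genes nearest to each RNA were found by the summed absolute difference of their shares of RPM over the 3 libraries. With only 3 libraries such likeness is a description. The nearest to Rny1 were n-TSaga9 (0.00946) and Gm24379 (0.0209), of which Gm24379 shares 325 reads with it. The nearest to Rny3 were Gm24265 (0.0236) and Gm24245 (0.0409). The nearest to Rmrp were Gm37772 (0.0260) and n-TSaga9 (0.0342), and those to Rn7sk were Gm25682 (0.0215) and Gm26917 (0.0250).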

How the data were processed

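The deposited files hold single reads with a score per base in place of the read counts the plan assumed, with the 3′ linker still on, so these are other values than counts, per the file contents and the labels. Steps between sequencing and deposit are not given in the sources used here. Earlier results of these data were known when the 6 genes, the lists and the rule for named genes were chosen. All 6 genes were named, with starts that held at least 10% of the reads of a gene with at least 10 reads in a library (at most 3), and the 2 genes nearest in pattern.

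The linker was read from the files and trimmed where at least 4 (26 nt reads) or 6 (36 nt reads) bases overlapped with up to 20% mismatches. The first 20 nt (the whole insert at 18 or 19 nt) were matched exactly to 141767 GENCODE M21 transcripts on both strands. A read counted in full for each gene it matched, and RPM is per 1000000 usable reads. No genome sequence was used, so matches outside annotated transcripts were not analysed. Positions refer to the longest annotated transcript. PCR reads without molecular identifiers are not independent molecules. Trimming and matching were tested on simulated reads, where base errors lowered the number of reads matched.

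Intervals are 95%: exact Poisson for levels, Wilson for shares and conditional binomial for ratios. Alternatives covered the matched length, mismatches, shared reads, distinct inserts, trimming, scaling and the 5′ window. Those that leave out unsized reads of the 19-30 nt library and the lengths set against RNA and linker were added after the data were seen. Python 3.11.15, numpy 2.4.6, scipy 1.17.1, pandas 2.3.3 and RNAfold 2.7.2 were used.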

Additional observations from a re-analysis of the deposited data

How the results depend on the processing

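No paired analysis was possible because each window has 1 library, so the windows share fewer than 2 replicate numbers. With the first 18 nt matched, the summed level was 350 RPM in the 19-24 nt and 1845 RPM in the 24-30 nt library. With 1 mismatch allowed it was 402, 2065 and 81.1 RPM in the 19-24, 24-30 and 19-30 nt libraries. With reads divided by the genes they match it was 254.5 RPM in the 19-24 nt and 1453 RPM in the 24-30 nt library, and the share of 5′ starts was 79.5%, 86.3% and 72.1% over the libraries. With reads of no other gene alone, the level was 239, 1350 and 39.9 RPM and the share was 83.9%, 92.8% and 80.0%. With distinct inserts, the level was 346 RPM in the 19-24 nt and 852 RPM in the 24-30 nt library, the ratios were 0.406 (19-24 over 24-30) and 11.1 (24-30 over 19-30), and the 5′ shares were 49.2% and 47.9% in the 19-24 and 24-30 nt libraries. The ratio of the 19-24 over the 24-30 nt library was 0.0924 when scaled to reads that match a transcript and 0.380 when reads of microRNA genes were left out as well. A 5′ window of 2 nt gave 55.1% in the 24-30 nt library, since the Rmrp start at position 5 falls outside it. A window of 10 nt gave 79.5%, mainly by taking in the 114 Rny1 reads at positions 6 to 8. Apart from these 5′ windows, the cause was not tested. The 40 other values, stricter trimming and the omission of unsized 19-30 nt reads included, moved by less than counting error, and both ratios kept their direction under all settings run. Depth limits Rpph1, Terc and all fragments of the 19-30 nt library, where 45 reads carry the values.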
